A study of Mus musculus with 12 samples.

Results

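The genes described here are Atf4, which encodes the transcription factor at the centre of the integrated stress response, 5 genes best known as its targets or partners (Ddit3, Trib3, Ppp1r15a, Chac1 and Asns), and 4 genes of serine synthesis and use (Phgdh, Psat1, Psph and Shmt2). They were chosen by symbol, 10 genes out of 30142 named on the array. Where a gene had several probe sets, the brightest on average was used, and 9 of the 10 passed the filter on dim probe sets, which Chac1 did not. RNA came from megakaryocytes, the platelet-forming cells of the marrow, grown from bone marrow hematopoietic stem cells of male C57BL/6 mice with thrombopoietin at 100 ng per ml for 3 days. After a night in charcoal-stripped serum, which is low in steroids, they were purified on an albumin gradient on day 4. Of each of 6 cultures, labelled as biological replicates, one portion received the glucocorticoid dexamethasone (100 nM, 6 h) and the other only vehicle, which gave 6 arrays per treatment. Cultures are called here by the replicate numbers 1 to 6 that both groups share. The genotype of the mice is given only as the strain, and neither their age nor whether cultures came from separate mice is given in the sources used here.

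Phosphorylation of the initiation factor eIF2 by stress-sensing kinases slows general protein synthesis while favouring translation of Atf4 mRNA. The ATF4 protein then induces amino acid transporters, aminoacyl-tRNA synthetases and biosynthetic enzymes, as well as CHOP, the product of Ddit3. Because ATF4 is controlled largely at translation, its mRNA level is not a measure of its protein, which was not measured here. The serine pathway runs from 3-phosphoglycerate through PHGDH, PSAT1 and PSPH to serine, from which the mitochondrial enzyme SHMT2 passes a one-carbon unit to folate.

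With dexamethasone, 4 of the 9 tested genes passed the threshold, an adjusted p under 0.05 in limma over 24265 genes tested, with culture as a block. Ppp1r15a, the eIF2 phosphatase subunit, rose by 0.74 on the log2 scale, a 1.67-fold change. Asns, asparagine synthetase, fell by 0.49, Shmt2 by 0.31 and Psat1 by 0.22, changes of 1.41-fold, 1.24-fold and 1.17-fold. The transcripts of Atf4 and Ddit3 themselves did not pass. Of all genes tested, 12.0% passed, 7.39% higher and 4.56% lower. The share of higher genes among these calls depended on scaling, being 61.9% of calls with the deposited values, 44.9% when arrays were quantile normalized and 70.3% when each was centred on its median, but none of the 9 tested genes changed sign under either scaling.

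Values are the deposited log2 values, so folds are folds on that scale, and levels are not compared between genes. The median of the array's negative control probe sets, a guide to background, was between 6.15 and 6.39 on the 12 arrays. Trib3, Chac1 and Phgdh lay below it on all 12 arrays, and the other 7 genes lay above it on all 12. Ddit3 alone lay above the 95th percentile of the negative controls, 9.98 to 10.39, on all 12 arrays, and Ppp1r15a did so on 4 of 6 vehicle and 6 of 6 dexamethasone arrays. All 13 tested megakaryocyte markers lay above the negative control median on every array. Of these, Tubb1, a platelet tubulin, fell by 1.14 (SE 0.06), Gp9 and Gata1 rose by 0.44 (SE 0.06) and 0.29 (SE 0.05), and 10 did not pass. In addition, 6 of 6 well-known glucocorticoid receptor targets, such as Tsc22d3 and Fkbp5, rose. Neutrophil markers moved too: 4 of 12 fell, and the sum of the 12 log2 values was 80.3 to 90.5 in vehicle and 75.1 to 86.9 in dexamethasone, while Elane, Retnlg and Csf3r stayed below the negative controls' median on every array. The falls were those of S100a9, S100a8, Camp and Ltf, and 2 of these 12 genes passed without culture 1, 3 or 4. Ltf was near background, above that median on 2 of 6 vehicle and 0 of 6 dexamethasone arrays. Among the other marker lists, 1 of 11 monocyte and macrophage genes (Ccr2), 1 of 5 erythroid (Tfrc) and 1 of 8 lymphocyte genes (Gzmb) fell. Of 8 mast cell and basophil genes, Cpa3 and Kit rose and Mcpt8 fell. Ccr2 and Mcpt8 were near background. Each exceeded the negative control median on 6 of 6 vehicle arrays, but on 0 and 2 of 6 dexamethasone arrays. Tfrc and Gzmb, with vehicle means of 14.22 and 13.91, exceeded the negative controls' 95th percentile on every array. So did Lyz2 of the monocyte and macrophage list, with means of 17.46 in vehicle and 17.52 in dexamethasone, which did not pass. The neutrophil genes S100a9 and S100a8 had vehicle means of 12.54 and 12.36. They exceeded that percentile on 6 and 5 of 6 vehicle arrays, and on 5 of 6 dexamethasone arrays each. Part of each list was at background: in the order given, 6, 2, 5 and 3 genes never exceeded the controls' median. Changes of so few genes cannot show whether cells of these types were present or became fewer. The part of any such cells, neutrophils included, in the results below was not tested. In bulk RNA, fewer cells of a type cannot be told apart from less RNA per cell.

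**Figure D1:**
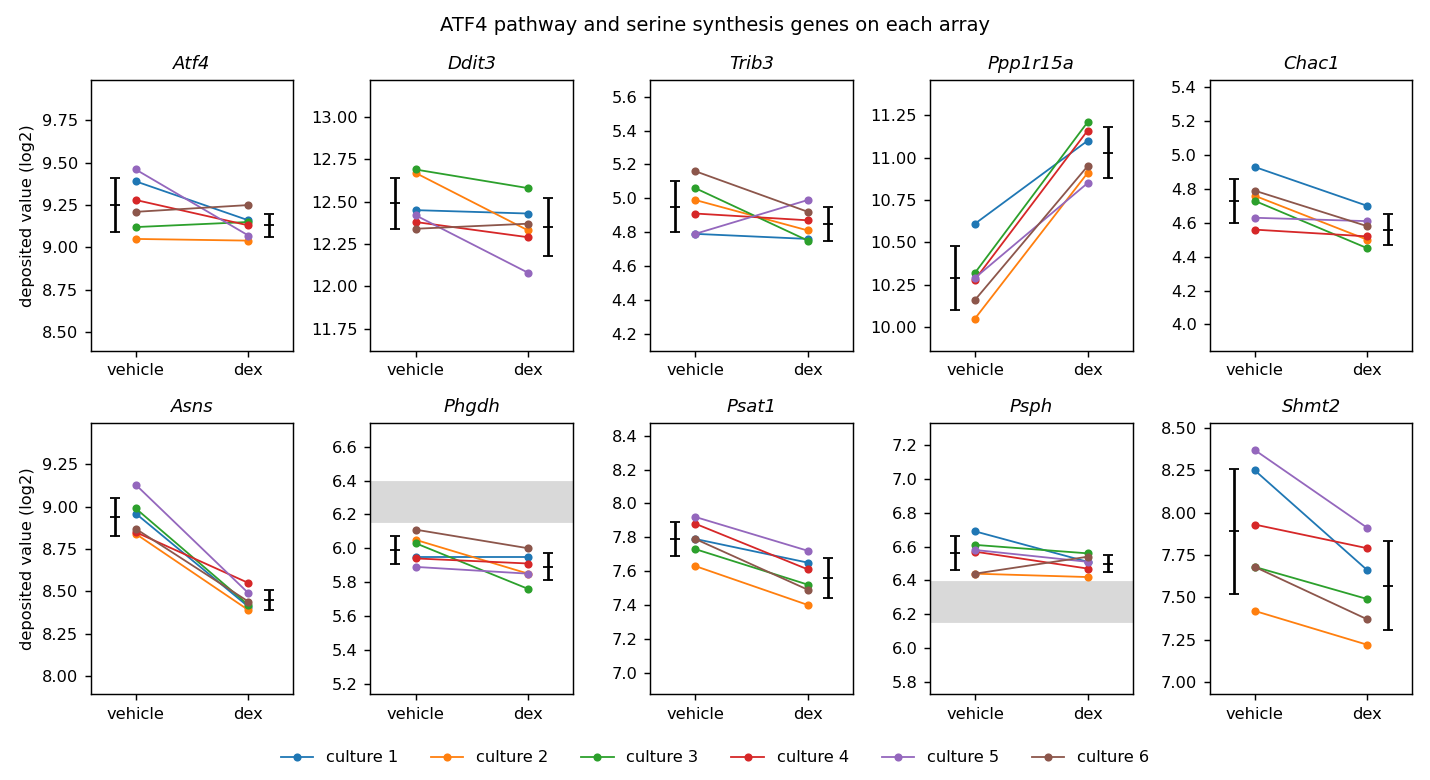
Deposited log2 values of the 10 genes on the 12 arrays, with a line joining vehicle and dexamethasone (dex) of each culture, black bars for mean ± SD (n = 6) and a grey band for the range of the negative control medians, where it falls within a panel. Every panel spans the same range of log2 units; Ppp1r15a rises and Asns falls with no overlap between the groups, and Phgdh lies below the grey band.

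The regulators come first. Atf4 was 9.05, 9.25 and 9.46 (lowest, median and highest of 6 arrays) in vehicle and 9.04, 9.14 and 9.25 in dexamethasone. The groups overlapped, and the vehicle arrays were the more spread, with cultures 5, 1 and 4 above every dexamethasone array. The fitted difference was -0.12 (SE 0.07, 95% confidence interval -0.27 to 0.03, adjusted p = 0.288). It was lower in 4 of 6 cultures, by 0.38 in culture 5 at one end, whereas culture 6 was higher by 0.04. Up to a fall of 0.27 is therefore within the interval, and no rise above 0.03 is.

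Ddit3 encodes CHOP, a bZIP factor that pairs with C/EBP proteins and with ATF4. It was 12.34, 12.44 and 12.69 in vehicle and 12.08, 12.35 and 12.58 in dexamethasone, and the groups overlapped. The difference was -0.14 (SE 0.06, 95% confidence interval -0.29 to -0.00, adjusted p = 0.185), lower in 5 of 6 cultures. This probe set has no mapped position in the array's naming. A further probe set named for Ddit3, on the gene's own chromosome, was 12.42 ± 0.15 in vehicle and 12.24 ± 0.17 in dexamethasone (SD, n = 6). Its difference of -0.17 (SE 0.06) was seen in 6 of 6 cultures and had an adjusted p of 0.193 in a fit of all transcript clusters. Both probe sets thus leaned the same way, and neither passed.

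Trib3 encodes a pseudokinase that ATF4 and CHOP induce and that restrains both. Its values were 4.79, 4.95 and 5.16 in vehicle and 4.75, 4.84 and 4.99 in dexamethasone, below the negative control median throughout. The difference of -0.10 (SE 0.07, 95% confidence interval -0.26 to 0.06) had an adjusted p of 0.387, and culture 5 went the other way, higher by 0.20.

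Ppp1r15a encodes GADD34, the stress-induced subunit that directs protein phosphatase 1 to eIF2 and so ends the translational block. It was 10.05, 10.29 and 10.61 in vehicle and 10.85, 11.02 and 11.21 in dexamethasone. The lowest dexamethasone array lay above the highest vehicle array, a separation upward that 4.1% of all tested genes showed, and 6.73% in either direction. The rise of 0.74 (SE 0.07, 95% confidence interval 0.59 to 0.90, adjusted p = 0.000154) was seen in 6 of 6 cultures. It was smallest in cultures 1 and 5, at 0.49 and 0.56, and between 0.78 and 0.89 in the other 4. Culture 1 had the highest vehicle value, 10.61, and without it the rise was 0.80.

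The constitutive counterpart Ppp1r15b, which encodes CReP, was 11.06 ± 0.11 and 11.21 ± 0.11 (vehicle and dexamethasone, SD, n = 6), a difference of 0.15 that did not pass (SE 0.06, adjusted p = 0.137). The change of Ppp1r15a exceeded that of Ppp1r15b by 0.60 (SE 0.09), and did so in 6 of 6 cultures. This is 1 of 4 such differences between the changes of a pair of genes, which are descriptions with no test, since the pairs were chosen after their values were seen. The catalytic subunit gene Ppp1ca, at 16.23 ± 0.05 and 16.21 ± 0.07, differed by -0.02 (adjusted p = 0.824).

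**Figure D2:**
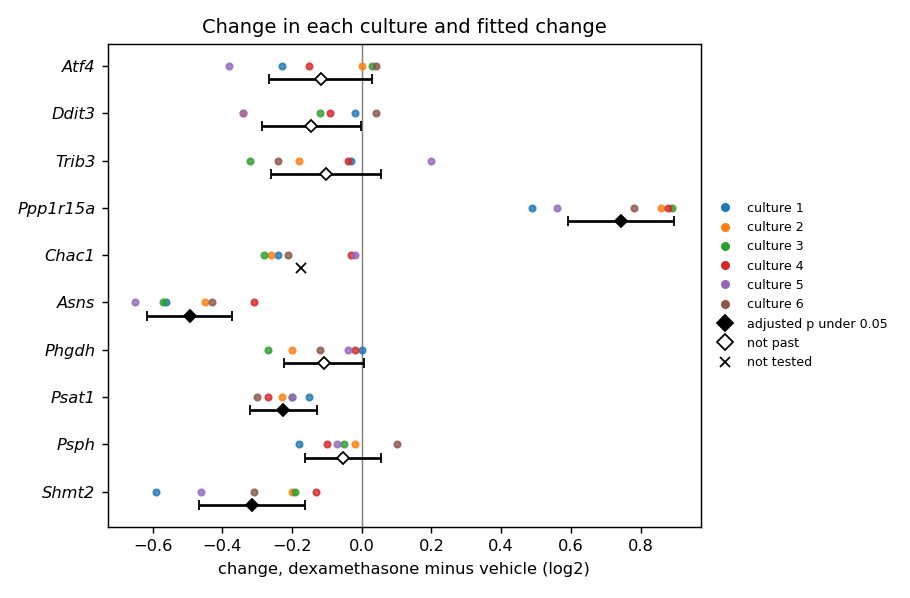
Change in each culture (coloured points, dexamethasone minus vehicle, log2) and the limma estimate with its 95% confidence interval (diamonds; filled where the adjusted p was under 0.05; a cross for Chac1, which was below the filter). Ppp1r15a, Asns, Psat1 and Shmt2 have filled diamonds; the intervals of Atf4, Trib3, Phgdh and Psph span 0 and that of Ddit3 ends at -0.00, and points of equal value cover each other.

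Among genes for eIF2, its kinases and its exchange factor eIF2B, the test called 1 of 14 higher and 2 lower, and 11 did not pass, with a median change of 0.00 beside -0.01 over all genes tested. Eif2ak1, the heme-regulated eIF2 kinase, rose from 11.07 ± 0.07 to 11.35 ± 0.08, by 0.28 (SE 0.05, adjusted p = 0.00944), in 6 of 6 cultures. The kinases PERK (Eif2ak3) and GCN2 (Eif2ak4), which respond to the endoplasmic reticulum and to amino acid lack, differed by 0.07 each, with adjusted p of 0.409 and 0.46. PKR (Eif2ak2), the kinase that senses double-stranded RNA, differed by -0.12 (adjusted p = 0.117). The eIF2 beta subunit gene Eif2s2 and the eIF2B subunit gene Eif2b3 fell by 0.22 and 0.23, and each call was lost under 6 of 16 other settings, both of them without culture 5 or 6. Centring arrays on their medians left 0 of the 14 genes lower, and quantile normalization made it 4.

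The list of bZIP genes, whose products could pair with ATF4 or CHOP, had 13 tested, of which 1 rose and 2 fell. Cebpb, a C/EBP factor, rose by 0.31 (SE 0.07, adjusted p = 0.0205) from 7.63 ± 0.12, a call lost under 5 of 16 other settings, quantile normalization included. Maf fell by 0.70 (SE 0.04, adjusted p = 1.95e-05) and Batf by 0.39 (SE 0.08, adjusted p = 0.0172). The call of Batf was lost under 3 of 16 other settings, among them leaving out culture 5 or culture 6, which left 1 of the 13 genes lower. Cebpg, a frequent partner of ATF4, differed by 0.02 (adjusted p = 0.858), and the stress-induced Atf3 and Atf5 by 0.09 and -0.00 (adjusted p = 0.779 and 0.984).

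The promoter windows of 4 genes are shown for the element through which ATF4 acts at amino acid response genes, TGATGNAA, a composite of a C/EBP and an ATF site. They run from 250 bases before to 50 bases after the start of the gene in RefSeq (GRCm38.p6), 5′ to 3′ along the gene. Asns is at chr6:7693160-7693459 on the minus strand, Chac1 at chr2:119350992-119351291 on the plus strand, Trib3 at chr2:152344011-152344310 on the minus strand and Ppp1r15a at chr7:45526219-45526518 on the minus strand. Capitals mark TGATGNAA and the glucocorticoid receptor hexamer AGAACA, each on either strand; no match of one overlapped a match of the other.
Asns: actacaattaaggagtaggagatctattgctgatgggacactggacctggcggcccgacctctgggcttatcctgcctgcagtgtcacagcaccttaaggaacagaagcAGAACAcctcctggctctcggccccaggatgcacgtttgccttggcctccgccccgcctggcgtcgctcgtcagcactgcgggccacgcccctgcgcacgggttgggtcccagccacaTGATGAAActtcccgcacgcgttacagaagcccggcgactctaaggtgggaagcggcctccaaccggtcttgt
Chac1: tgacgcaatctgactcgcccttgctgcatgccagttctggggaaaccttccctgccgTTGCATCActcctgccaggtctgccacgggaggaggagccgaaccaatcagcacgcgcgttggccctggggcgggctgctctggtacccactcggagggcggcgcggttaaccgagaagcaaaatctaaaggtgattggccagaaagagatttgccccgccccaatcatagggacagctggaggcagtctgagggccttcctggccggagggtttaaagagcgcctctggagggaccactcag
Trib3: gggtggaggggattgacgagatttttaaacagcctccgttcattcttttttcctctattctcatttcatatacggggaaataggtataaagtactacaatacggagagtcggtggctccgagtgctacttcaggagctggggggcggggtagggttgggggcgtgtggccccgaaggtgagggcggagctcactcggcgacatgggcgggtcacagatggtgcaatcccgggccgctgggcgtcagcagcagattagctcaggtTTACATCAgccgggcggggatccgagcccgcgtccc
Ppp1r15a: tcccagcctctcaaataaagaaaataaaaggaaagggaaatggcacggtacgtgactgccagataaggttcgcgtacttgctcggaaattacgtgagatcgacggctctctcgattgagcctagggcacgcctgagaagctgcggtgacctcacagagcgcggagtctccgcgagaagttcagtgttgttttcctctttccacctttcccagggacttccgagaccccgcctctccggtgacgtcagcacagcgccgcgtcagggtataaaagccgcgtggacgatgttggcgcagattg

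TGATGNAA was found in the windows of 3 of the 10 genes, Asns, Chac1 and Trib3, and in those of 4.51% of the 27025 genes of the table, counting a gene once where any of its windows holds it. In Asns the letters TGATGAAA stood on the gene's own strand at bases -23 to -16 from the start. In Chac1 the strict form TGATGCAA, which 1.03% of genes hold, stood on the opposite strand at bases -193 to -186. In Trib3 the letters TGATGTAA stood on the opposite strand at bases 15 to 22 after the start. AGAACA was found in Asns and Psph and in 21.3% of genes, and the full palindromic receptor site (this hexamer and its inverted copy, 3 bases apart) in none of the 10 genes and in 3 genes of the table. The Ppp1r15a window, shown because this gene rose, held none of these letters. A match describes letters in a window and is not evidence of binding.

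Asns makes asparagine from aspartate and is among the most used reporters of ATF4 activity. It was 8.84, 8.92 and 9.13 in vehicle and 8.39, 8.43 and 8.55 in dexamethasone. No dexamethasone array reached the lowest vehicle array, a separation downward that 2.63% of all tested genes showed. The fall of 0.49 (SE 0.05, 95% confidence interval 0.37 to 0.62 in size, adjusted p = 0.000473) was seen in 6 of 6 cultures, from -0.31 in culture 4 to -0.65 in culture 5.

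The change of Asns was below that of Atf4 by 0.38 (SE 0.07) in the mean, and lower in 6 of 6 cultures. Culture 5 had the highest vehicle value and the largest fall for both genes, although a high vehicle value by itself enlarges a fall computed from it. In cultures 3 and 6 Atf4 was higher in dexamethasone by 0.03 and 0.04, less than the SE of its fitted difference, 0.07. Asns was lower there by 0.57 and 0.43. Whether the changes of Atf4 and Asns are linked was not tested.

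Chac1, a glutathione-degrading enzyme induced by ATF4, was 4.56, 4.75 and 4.93 in vehicle and 4.45, 4.55 and 4.70 in dexamethasone. Only 1 of 12 arrays put it above the array's 25th percentile, so it did not enter the fit. Its values were lower in dexamethasone in 6 of 6 cultures, by 0.17 in the mean, and in a fit with no filter the adjusted p was 0.0885. The groups overlapped.

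Serine synthesis opens with Phgdh, the dehydrogenase that commits 3-phosphoglycerate to the pathway. Phgdh was 5.89, 5.99 and 6.11 in vehicle and 5.76, 5.88 and 6.00 in dexamethasone, all below the negative control median. The difference of -0.11 (SE 0.05, 95% confidence interval -0.22 to 0.01) had an adjusted p of 0.216. Its lowest change was -0.27 in culture 3, and in culture 1 the treatments differed by 0.00.

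Psat1, the aminotransferase of the next step, was 7.63, 7.79 and 7.92 in vehicle and 7.40, 7.57 and 7.72 in dexamethasone. The groups overlapped, yet every culture was lower in dexamethasone, by 0.15 at the least and 0.30 at the most. The fall was 0.22 (SE 0.04, 95% confidence interval 0.13 to 0.32 in size, adjusted p = 0.00968). A fall in all 6 cultures was seen in 8.32% of all tested genes. Psph, the phosphatase that releases serine, was 6.44, 6.58 and 6.69 in vehicle and 6.42, 6.51 and 6.56 in dexamethasone, close above the negative control median. It differed by -0.05 (SE 0.05, 95% confidence interval -0.16 to 0.06, adjusted p = 0.514). The change of Psat1 was below that of Psph by 0.17 (SE 0.06) in the mean and in 5 of 6 cultures, and this difference between the steps was not tested.

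Shmt2, the mitochondrial serine hydroxymethyltransferase, varied most between cultures among the 10 genes. It was 7.42, 7.80 and 8.37 in vehicle and 7.22, 7.57 and 7.91 in dexamethasone, so the groups overlapped widely. In every culture the dexamethasone array was lower, by 0.59 and 0.46 in cultures 1 and 5, and by 0.13 to 0.31 in the other 4. Cultures 1 and 5 also had the highest vehicle values, but a high vehicle value by itself enlarges a fall computed from it. The fall was 0.31 (SE 0.07, 95% confidence interval 0.16 to 0.47 in size, adjusted p = 0.0177). Without the culture block the same difference had an adjusted p of 0.251, and without culture 5 it was -0.29 with an adjusted p of 0.0524. In vehicle the cultures ranked 5, 1, 4, 6, 3, 2 from high to low for Shmt2, with cultures 6 and 3 both at 7.68. Atf4 had that same order, but so did Xpot, described below, so the order was not particular to Shmt2 and Atf4. The match was picked after the values were seen and was not tested.

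The cytosolic form Shmt1 was 6.32 ± 0.05 in vehicle and 6.33 ± 0.04 in dexamethasone (SD, n = 6). It was above the negative control median on 11 of 12 arrays, but only just. Its values ran from 6.27 to 6.39, and those medians from 6.15 to 6.39. It differed by 0.01 (SE 0.05, adjusted p = 0.953). The change of Shmt2 was below that of Shmt1 by 0.32 (SE 0.07) in the mean and in 6 of 6 cultures, a description with no test. So near background a change of Shmt1 may not show, so this difference cannot tell whether the cytosolic form was unchanged. Shmt1 falls outside the rule for named genes and was chosen after its values were seen.

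Folate and one-carbon genes carry the unit that SHMT2 releases into purines, thymidylate and methionine. Of 20 tested, 6 fell, 1 rose and 13 did not pass, with a median change of -0.09. After median centring 4 fell, and after quantile normalization 7. Mthfd2, the mitochondrial dehydrogenase and cyclohydrolase next to SHMT2, fell from 7.44 ± 0.11 to 6.87 ± 0.07, by 0.57 (SE 0.06, adjusted p = 0.000362). The Mthfd2 groups did not overlap, with a lowest vehicle value of 7.26 and a highest dexamethasone value of 6.95. Its relatives Mthfd2l and Mthfd1l, named after their values were seen, fell by 0.27 and 0.21 (adjusted p = 0.00888 and 0.0444), and the call of Mthfd1l was lost under 10 of 16 other settings. The cytosolic Mthfd1 fell by 0.28 (SE 0.05, adjusted p = 0.00825). Atic, which completes the purine ring, fell by 0.70 (SE 0.06, adjusted p = 9.17e-05) from 10.58 ± 0.06.

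Ahcy moved the other way and by far the most in this list. It encodes S-adenosylhomocysteine hydrolase, which clears the product of methylation reactions. Probe sets on 2 chromosomes carry this name; the brighter is on chromosome 16, although RefSeq places the gene on chromosome 2. On the brighter, Ahcy was 8.47, 8.67 and 9.55 in vehicle and 10.59, 10.75 and 10.96 in dexamethasone, with no overlap. The rise was 1.96 (SE 0.14, 95% confidence interval 1.64 to 2.28, adjusted p = 4.84e-05), in 6 of 6 cultures. Culture 1 stood highest in vehicle, and Ahcy rose by 2.12 without it. The probe set on chromosome 2 went from 7.67 ± 0.27 to 9.64 ± 0.19, higher by 1.98 (SE 0.12, adjusted p = 3.1e-05 in a fit of all transcript clusters) in 6 of 6 cultures and with no overlap. For 199 of the 201 list genes checked, the 10 included, the probe set lay on the gene's RefSeq chromosome, the others being Ahcy and Ddit3. A synthetase gene matched under an updated symbol was not checked. Sfxn1, a mitochondrial serine carrier, and Gcsh of the glycine cleavage system did not pass, with differences of 0.04 and -0.08 (adjusted p = 0.565 and 0.391).

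**Figure D3:**
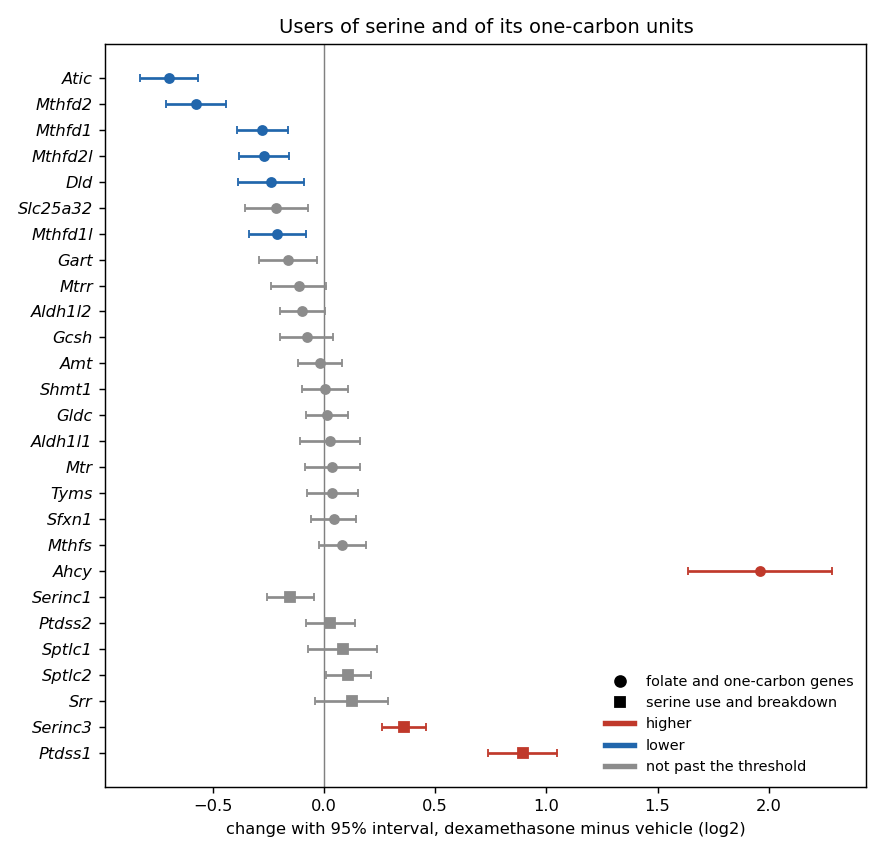
Fitted changes with 95% confidence intervals (log2, dexamethasone minus vehicle) of 20 folate and one-carbon genes (circles) and 7 genes of serine use (squares), coloured by call. Of the circles, 6 are lower, among them Atic and Mthfd2, and Ahcy alone is higher, by 1.96; Ptdss1 and Serinc3 are the higher squares.

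Of genes for other uses and the breakdown of serine, 7 were tested: 2 rose and 5 did not pass, and the median change was 0.11. Ptdss1, which swaps choline for serine to make phosphatidylserine, rose from 10.59 ± 0.22 to 11.48 ± 0.12, by 0.89 (SE 0.07, adjusted p = 6.57e-05). Serinc3, a membrane protein named for serine incorporation, rose by 0.36 (SE 0.04, adjusted p = 0.000895) from 17.39 ± 0.04. Serinc1 and the serine palmitoyltransferase subunit gene Sptlc2 differed by -0.15 and 0.11 (adjusted p = 0.0721 and 0.147). Serinc1 passed as lower under 5 of 16 other settings, quantile normalization included.

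Further genes known as ATF4 targets went both ways, with 6 of 21 tested higher, 5 lower and 10 not past the threshold, and a median of -0.05. Of the 10 not past it, 6 stayed below the negative control median on every array, where small changes may not show. Leaving out each culture in turn gave 5 higher and 4 or 5 lower. After median centring 5 were higher and 4 lower, and after quantile normalization 5 and 5. The largest rises were those of Ddit4, an mTORC1 inhibitor, by 1.83 (SE 0.06, adjusted p = 3.46e-07), and Gadd45a, a growth arrest gene, by 1.68 (SE 0.07, adjusted p = 9.83e-07). Ddit4 is also a textbook glucocorticoid receptor target. The largest falls were those of Xpot, the tRNA exporter, by 0.45 (SE 0.06, adjusted p = 0.00171), and Aldh18a1, the first enzyme of proline synthesis, by 0.43 (SE 0.09, adjusted p = 0.0134). Ndrg1 and the translation repressor gene Eif4ebp1 differed by -0.09 and 0.11 (adjusted p = 0.322 and 0.274).

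Amino acid transporter genes under ATF4 also split, with 2 of 10 higher, 2 lower and 6 not past the threshold. Slc1a4, a neutral amino acid transporter that carries serine, rose by 1.00 (SE 0.08, adjusted p = 6.43e-05). Slc3a2, the heavy chain shared by several exchangers, rose from 11.23 ± 0.05 to 12.11 ± 0.13, by 0.88 (SE 0.06, adjusted p = 3.65e-05). Slc7a5, the light chain that joins it in the large neutral amino acid exchanger, fell from 10.21 ± 0.09 to 9.65 ± 0.21, by 0.57 (SE 0.09, adjusted p = 0.00378). Slc7a1, for cationic amino acids, fell by 0.52 (SE 0.06, adjusted p = 0.000706). Slc38a2 and Slc1a5 differed by -0.14 and -0.08 (adjusted p = 0.102 and 0.399).

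Cytosolic aminoacyl-tRNA synthetase genes under ATF4 showed falls and no rise: 6 of 12 tested fell, 6 did not pass and the median change was -0.27. After quantile normalization 9 fell, and after median centring 6. Tars fell by 0.47 (SE 0.06, adjusted p = 0.0018), Nars by 0.44 (SE 0.05, adjusted p = 0.000477), Iars by 0.37 (SE 0.05, adjusted p = 0.00177) and Eprs by 0.37 (SE 0.05, adjusted p = 0.00152), each in 6 of 6 cultures. Gars was 13.55 ± 0.04 and 13.55 ± 0.11 (adjusted p = 0.965), and Sars, which charges serine, differed by -0.15 (adjusted p = 0.111).

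The other arms of the unfolded protein response, driven by XBP1 and ATF6, were read for comparison. Of 20 genes tested 7 fell, 1 rose and 12 did not pass, with a median of -0.10; after quantile normalization 10 fell and none rose. Pdia6, Hyou1, Hspa5 and Hsp90b1, which encode folding enzymes and chaperones of the endoplasmic reticulum, fell by 0.44, 0.36, 0.35 and 0.35, with adjusted p between 0.000407 and 0.00856. Canx and Pdia3 differed by -0.12 and -0.15 (adjusted p = 0.117 and 0.0509). Among mitochondrial stress genes 3 of 10 fell, none rose and 7 did not pass, with a median of -0.11. These were the protease gene Afg3l2, by 0.52, and the chaperone genes Hspd1 and Hspa9, by 0.49 and 0.41 (adjusted p = 0.00021, 0.000137 and 0.000314). Hspa9 is also counted among the ATF4 targets. Hspe1 and Oma1 differed by -0.01 and -0.02 (adjusted p = 0.905 and 0.838).

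**Figure D4:**
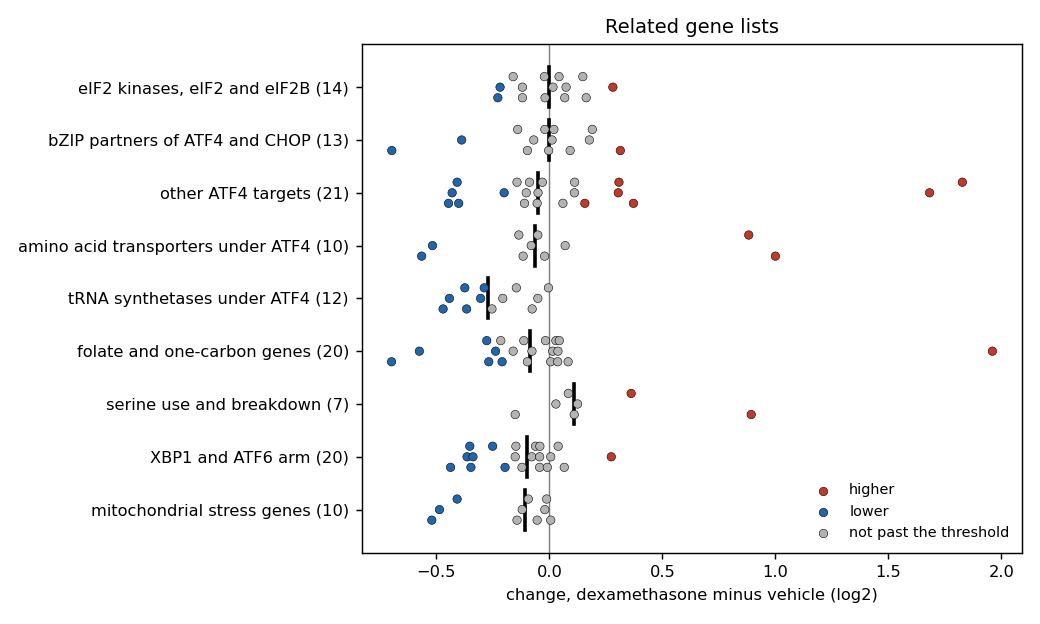
Fitted change of each tested gene (points, log2, dexamethasone minus vehicle) in 9 related lists, with the number tested in brackets, coloured by call; vertical bars are list medians and the small vertical offsets only separate points. The synthetase points lie at or below 0 with 6 called lower, whereas ATF4 targets and transporters have calls on both sides.

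The genes most like 3 of the 10 across the 12 arrays were taken by Pearson correlation over all genes tested, as a description that rests on arrays sharing cultures and treatments. The treatment difference was not removed. For Asns and Ppp1r15a, whose groups did not overlap, the ranking therefore favours genes that moved the same way, so their shared direction is no separate result. Asns was most like Atp2a2 (r = 0.978), the calcium pump of the endoplasmic reticulum, Kdr (0.974) and Dusp4 (0.972), each of which fell. Ppp1r15a was most like Stard10 (0.977), Pparg (0.976) and Gas2l1 (0.975), each of which rose. Atf4 was most like Akr1b10 (0.909), Cops7a (0.907) and Tomm40 (0.897), none of which passed the threshold for treatment.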

How the data were processed

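RNA of 12 samples, 6 per treatment, was amplified from 50 ng and put on 1-colour arrays, per the labels' protocols. The authors deposited log2 values of 72688 probe sets (2.07 to 19.93; the scale was judged from this range), and how they background-corrected, normalized and summarized them is not stated in the sources used here. Symbols came from the array annotation, updated through RefSeq; 30604 probe sets had 1 symbol, and 2146 with several were left out. Genes over the array's 25th percentile on 6 or more of the 12 arrays were tested: 24265 of 30142. Treatments were compared with limma 3.58.1 (R 4.3.3, lmFit and eBayes, two-sided), culture as a block, Benjamini-Hochberg adjusted over all genes tested. Adjusted p-values come from this fit unless another fit or setting is named beside them. The protocol states that cultures were split, and same-numbered arrays' deviations from group means correlated at 0.049 to 0.247 (mean 0.157; -0.032 for different numbers). The number of arrays limits precision.

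The genes and lists were chosen with earlier results of these data known; 205 of 225 list entries matched. All 10 genes, and any of the eIF2, bZIP, marker and receptor target lists, could be named, and of other lists up to 4 called genes with the largest change and up to 2 uncalled ones with the highest level. Alternatives were the block, scaling, filter, variance model, probe set choice, features fitted and each culture left out.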

Additional observations from a re-analysis of the deposited data

How the results depend on the processing

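Over 16 other settings, the 9 tested genes of the ATF4 and serine group gave 141 values; none changed direction, 136 stayed on their side of the threshold and 5 no longer passed. Ppp1r15a (0.69 to 0.80) and Asns (-0.55 to -0.46) passed under all 16. With every probe set fitted, unnamed and control ones included, 1215 named genes passed in place of 2900, and of the group 2 passed and 1 of these was lower: the change of Psat1 and the change of Shmt2 had adjusted p of 0.0596 and 0.0807. With culture as a block, 4 of the group passed; with no replicate block 3 did, as Shmt2 no longer passed (adjusted p = 0.251), and likewise with culture as a random effect (0.155). Leaving out each culture in turn gave 1876 to 2334 genes and, in the group, lost Shmt2 without culture 5 alone; without culture 3, which gave the lowest count, the group kept 4 calls. The cause was not tested. Among 187 list genes, 108 of 2935 values no longer passed, 48 newly passed and none of the called genes reversed. Chac1, Trib3 and Phgdh lie below the negative control median, and Psph and Shmt1 close above it, where small changes may not show.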
